A study of Zea mays with 4 samples.

Results

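The asparagine synthetase family was followed on maize (Zea mays) root arrays through every maize probe whose description names asparagine synthetase or asparagine synthase, left out where the description concerns a transfer RNA, and kept where the probe has 1 spot on 1 array version. There were 8 such probes among 54787 maize probes with 1 spot on 1 version, 5 on version A and 3 on version B. Plants had been grown for 6 days in 0.5 mM nitrate and then for 2 days without nitrogen, after which the root system was divided between separate compartments. The nitrate-treated roots came from the side given 1 mM nitrate for 1 h. The control half-roots are those of the nitrogen-free side, which received 1 mM calcium chloride in place of the calcium supplied with nitrate. All plants were at day 10, no genotype is named in the labels, and RNA came from the 15 cm of root behind the tip. Both sides belong to the same kind of divided plant, so the control side is not an untreated plant. Each of 4 oligonucleotide arrays carried RNA of nitrate-treated roots in Cy3 and RNA of control half-roots in Cy5, with 2 replicate arrays per version. The question is how transcript levels differ between the side of the root that meets nitrate and the side that does not.

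Asparagine synthetase moves the amide group of glutamine onto aspartate at the expense of ATP and gives asparagine and glutamate. Asparagine carries much nitrogen per carbon and serves plants as a form in which nitrogen is stored and moved through xylem and phloem. Plants have a small family of these genes. In Arabidopsis one member is induced in the dark and by lack of sugar, whereas another is induced by light and by ammonium. The glutamine that the enzyme uses is made from ammonium, which in roots fed with nitrate comes from nitrate reduction.

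The 8 probes rest on 5 different best protein hits. MZ00034199 and MZ00034400, both on version A, have the same maize asparagine synthase as best hit. MZ00020656 on version A and MZ00012241 and MZ00038902 on version B share the barley glutamine-dependent asparagine synthetase 1. MZ00020656 and MZ00012241 are also listed with a full match to the same maize genomic assembly, AZM4_39448, so these probes of different versions point to one sequence. MZ00014557 is described by a rice asparagine synthase, MZ00000254 by a fragment of a maize asparagine synthase, and MZ00049532 by the maize asparagine synthetase of the Swiss-Prot database, with no listed match to a rice gene model. One rice gene model is listed for 6 of the probes, and another for 5 of these 6. The maize RefSeq annotation used here names 3 genes as AsnS1, AsnS2 and AsnS3, and 0 of the 8 probes could be matched to it by accession. Which gene each probe detects was therefore not settled, and probes with one hit may detect one transcript.

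The arrays gave a usable signal for most of the family. A channel was taken as above background when its deposited intensity was over a blank limit, the 95th percentile of buffer-only and blank spots in that channel of that array. These limits were 21 to 38 intensity units on version A and 47 to 242 on version B. Of the 8 probes, 7 exceeded the limit in both channels on both arrays. Over all maize probe spots, 89.6% to 98.9% exceeded it, counted per channel and array. MZ00038902 had intensities of 281 and 125 in the nitrate channel and of 192 and 38 in the control channel on replicates 1 and 2. It was above the limit on replicate 1 and below it on replicate 2 in both channels, and it was not tested. Its deposited ratios of nitrate over control, 0.788 and 3.18, pointed in opposite directions. As in any bulk RNA sample, fewer cells that express a gene and less RNA per cell cannot be told apart here. As a check of the tissue, all 29 probes whose names match root markers were above the limit in both channels on both arrays, against 56 of 62 leaf and 161 of 316 seed marker probes. The leaf markers were thus also detected in these roots. Since most probes of any kind were above the limit, this check does not tell root from leaf. Median log2 ratios of the tested marker probes were 0.23 for root, -0.02 for leaf and 0.05 for seed, and whether they play a part in the ratios of the family was not tested.

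**Figure D1:**
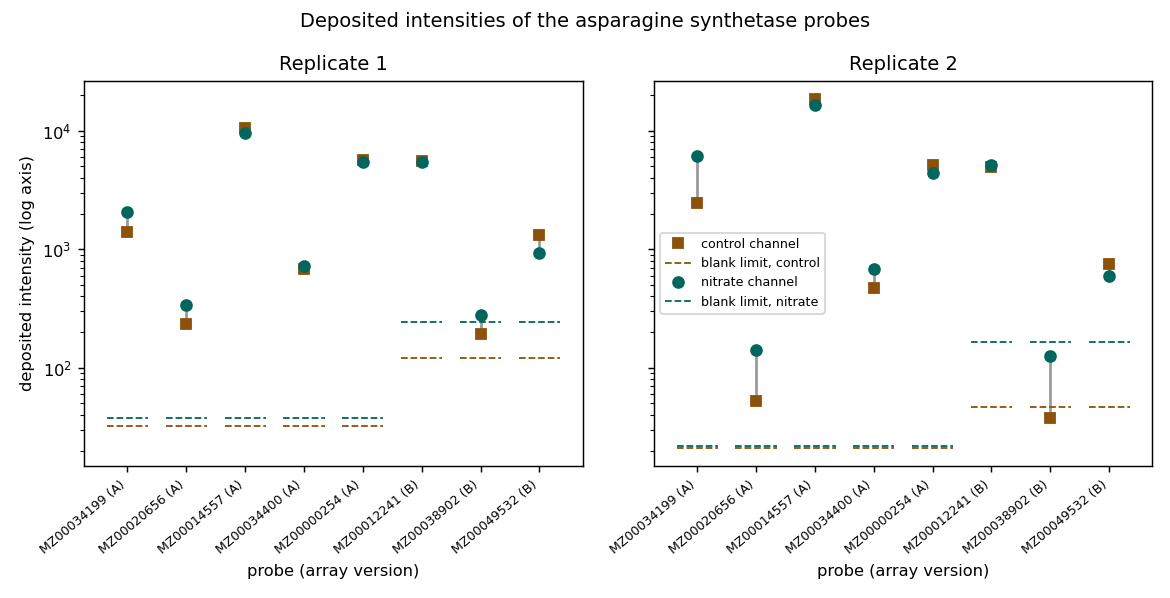
Deposited intensity (log axis) of the 8 asparagine synthetase probes in the nitrate (circles) and control (squares) channels on replicate 1 and replicate 2, with dashed lines at the 95th percentile of the blank spots of the same channel and array. Before normalization the nitrate intensity is the higher one on both arrays for MZ00034199, MZ00020656, MZ00034400 and MZ00038902 and the lower one on both for MZ00049532, MZ00014557 and MZ00000254, and MZ00038902 falls below the dashed lines on replicate 2.

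None of the 7 tested asparagine synthetase probes passed the test for a difference between nitrate-treated and control roots. The highest mean log2 ratio of nitrate over control was 0.92 ± 0.47 (SD, n = 2; MZ00034199) and the lowest was -0.61 ± 0.19 (MZ00049532), while the other 5 lay between 0.00058 and 0.18. Log2 ratios of nitrate over control were computed from the intensities after background correction by normexp and global loess within each array, and their mean was tested against 0 with limma. With Benjamini-Hochberg adjustment over all tested probes of a version and a threshold of 0.05, none of the 5 members of version A and none of the 2 of version B were called. Over all tested probes the same threshold called 0 of 28374 (0.0%) for version A, where 3415 had an unadjusted limma p under 0.05, and 13 of 24748 (0.0525%) for version B. At an unadjusted limma p under 0.05, 2 of the 7 members were counted, 1 higher and 1 lower, against 12.5% of all 53122 tested probes (7.59% higher and 4.86% lower). The ratio was above 0 on both arrays for 4 of the 7 (30.1% of all tested probes), below 0 on both for 1 (30.4%) and of opposite sign for 2 (39.6%). No member was at least 2-fold higher on both arrays (0.591% of all tested probes) or at least 2-fold lower on both (0.0941%). The median log2 ratio of the 7 probes was 0.09, and that of all tested probes was 1.01e-05. With median centring in place of loess the middle value of the 7 was -0.12 (MZ00012241), so this median has no settled direction.

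MZ00034199, a maize asparagine synthase probe, had the highest ratio of the family. Its nitrate intensities were 2058 and 6085 on replicates 1 and 2, and its control intensities were 1406 and 2462. The nitrate channel was thus the brighter one on both arrays, by 1.46-fold and 2.47-fold before normalization. After loess the log2 ratios were 0.58 and 1.25, with a mean of 0.92 ± 0.47 (SD, n = 2), a 1.89-fold difference with a 95% limma interval of 0.31 to 1.53 on the log2 scale. The unadjusted limma p was 0.00962 and the adjusted p was 0.314, so the ratio did not pass over all probes. In the authors' deposited ratios the same probe stood at 1.38 and 1.94. The mean ranked 702 from the top among 28374 tested probes of version A, above 97.5% of them. The arrays differed more for this probe than for most others, with 78.5% of the probes having a smaller SD. It reached 2-fold on replicate 2 and not on replicate 1.

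MZ00034400 shares its best protein hit with MZ00034199 and had a lower measured ratio on both arrays. It gave nitrate intensities of 723 and 682 and control intensities of 681 and 467. The log2 ratios after loess were 0.01 and 0.17, with a mean of 0.09 ± 0.11 (SD, n = 2; limma adjusted p = 0.884). The ratio of MZ00034199 exceeded that of MZ00034400 by 0.57 on replicate 1 and by 1.08 on replicate 2 on the log2 scale, a mean difference of 0.82 ± 0.36 (SD, n = 2). The values of these probes did not overlap. An exact permutation test of 2 values against 2, two-sided, cannot go below p = 0.333, so no pair of members can be separated by such a test. It also ignores that both probes were read on the same arrays. The files list these probes with full matches to different maize genomic assemblies.

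MZ00014557 was the probe with the rice description, and its intensities were the farthest above the blank limits of all members, by at least 249.7 times. Its nitrate intensities were 9489 and 16488 and its control intensities were 10501 and 18715. Before normalization the nitrate channel was thus slightly dimmer on both arrays, at 0.904-fold and 0.881-fold of the control channel. Loess ratios compare a probe with others of like brightness, and the 500 probes closest to it in brightness had median raw log2 ratios of -0.31 and -0.29. Relative to these, its log2 ratios after loess were 0.17 and 0.08, with a mean of 0.13 ± 0.07 (SD, n = 2; limma adjusted p = 0.842). The 95% limma interval ran from -0.41 to 0.66, so a change of up to 0.41 downwards or 0.66 upwards on the log2 scale lies within it. With median centring in place of loess the mean turned to -0.21.

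MZ00000254, the maize fragment, had no shared direction. It showed nitrate intensities of 5454 and 4408 against control intensities of 5622 and 5100. The log2 ratios were 0.19 on replicate 1 and -0.19 on replicate 2, and their mean was 0.00058 ± 0.27 (SD, n = 2; limma adjusted p = 0.999). Since the arrays pointed opposite ways by the same amount, this mean has no settled direction. Its sign turned in 5 of 9 other ways of processing the arrays. Of the remaining ways, those that changed only the filter or the prior could not turn it, and scaling between arrays gave 0.0038.

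The barley-described probes were also close to equal signal. MZ00012241 had nitrate intensities of 5434 and 5186 and control intensities of 5566 and 4903. Its log2 ratios were 0.28 and -0.11, so its arrays disagreed in direction, with a mean of 0.09 ± 0.28 (SD, n = 2; limma adjusted p = 0.912) that turned to -0.12 with median centring. MZ00020656, which matches the same genomic assembly on version A, was dim, with nitrate intensities of 337 and 140 and control intensities of 233 and 52. Its log2 ratios of 0.17 and 0.19 were nearly equal on both arrays, with a mean of 0.18 ± 0.01 (SD, n = 2; limma adjusted p = 0.761). On replicate 2 its control channel was 2.48 times the blank limit, and the raw nitrate channel was 2.69 times the control channel. The 500 probes of like brightness had a median raw log2 ratio of 1.04 on that array, so most of this raw difference was shared by dim probes. Relative to probes of like brightness its raw log2 ratios were 0.20 and 0.39, less alike than after normexp and loess. With plain background its mean was 0.25. The ranges of both probes for this one assembly overlapped.

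MZ00049532 was the tested member whose ratio after loess was below 0 on both arrays. Its nitrate intensities were 929 and 599 and its control intensities were 1317 and 756, lower with nitrate on both arrays before normalization, as were those of MZ00014557 and MZ00000254. The raw log2 ratios were -0.50 and -0.34 (0.705-fold and 0.792-fold). The 500 probes closest to it in brightness had median raw log2 ratios of 0.02 and 0.53. After loess the log2 ratios were -0.48 and -0.74, with a mean of -0.61 ± 0.19 (SD, n = 2). On replicate 2 the size of the ratio thus rests in large part on the loess correction. The mean is a 1.53-fold lower level with a 95% limma interval of -1.15 to -0.07. The unadjusted limma p was 0.031 and the adjusted p was 0.34, so it did not pass over all probes. The authors' deposited ratios were 0.727 and 0.614. Only 4.32% of the tested probes of version B had a lower mean. Its nitrate channel was 3.83 and 3.6 times the blank limit, and its control channel was 10.9 and 16.1 times. Its signal was thus nearer to background in the nitrate channel. On version B its values did not overlap those of MZ00012241, which was higher by 0.76 and 0.63 on replicates 1 and 2.

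**Figure D2:**
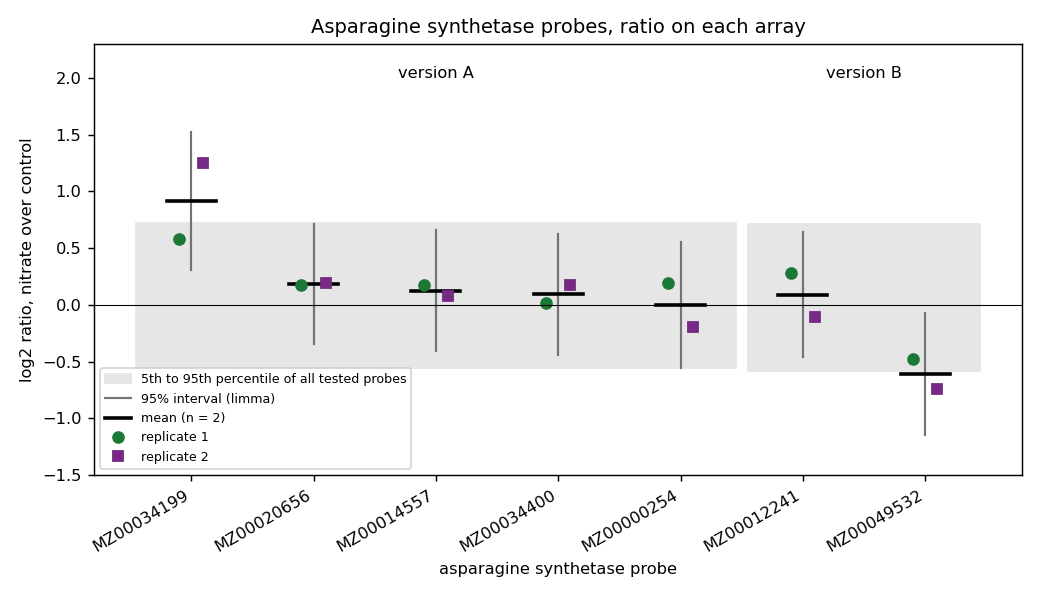
Log2 ratio of nitrate over control after loess for the 7 tested asparagine synthetase probes, on replicate 1 (circles) and replicate 2 (squares), with the mean of the 2 arrays (black bar), the 95% limma interval (grey line) and the 5th to 95th percentile of the means of all tested probes of the version (grey area). MZ00034199 at 0.92 and MZ00049532 at -0.61 lie outside the grey area, and the other 5 means lie between 0.00058 and 0.18.

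In order of the mean log2 ratio, the probes of version A were MZ00034199 (0.92), MZ00020656 (0.18), MZ00014557 (0.13), MZ00034400 (0.09) and MZ00000254 (0.00058). The last 4 overlapped with one another in every pair, whereas MZ00034199 lay above each of them on both arrays. On version B MZ00012241 (0.09) lay above MZ00049532 (-0.61). These are the extremes of the family, named by their means, so that their separation is a description only. The typical SD between arrays over all tested probes was 0.25 on version A and 0.24 on version B (medians). The means of MZ00034199 and MZ00049532 were larger in size than that SD, and the other means were smaller than it.

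The ratios of MZ00034199 and MZ00049532 had the same direction in each of 9 other ways of processing the arrays. Those ways that changed only the filter or the prior could not move a ratio. MZ00034199 ranged from 0.70 with print-tip loess to 0.95 with plain background, and its adjusted p from 0.176 to 0.53 (limma). MZ00049532 ranged from -0.72 with plain background to -0.46 with median centring, and its adjusted p from 0.307 to 0.578 (limma). MZ00020656 and MZ00034400 also stayed above 0, with up to 0.50 and 0.24, both with median centring. That setting turned the direction of 19.3% (version A) and 22.5% (version B) of all tested probes.

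**Figure D3:**
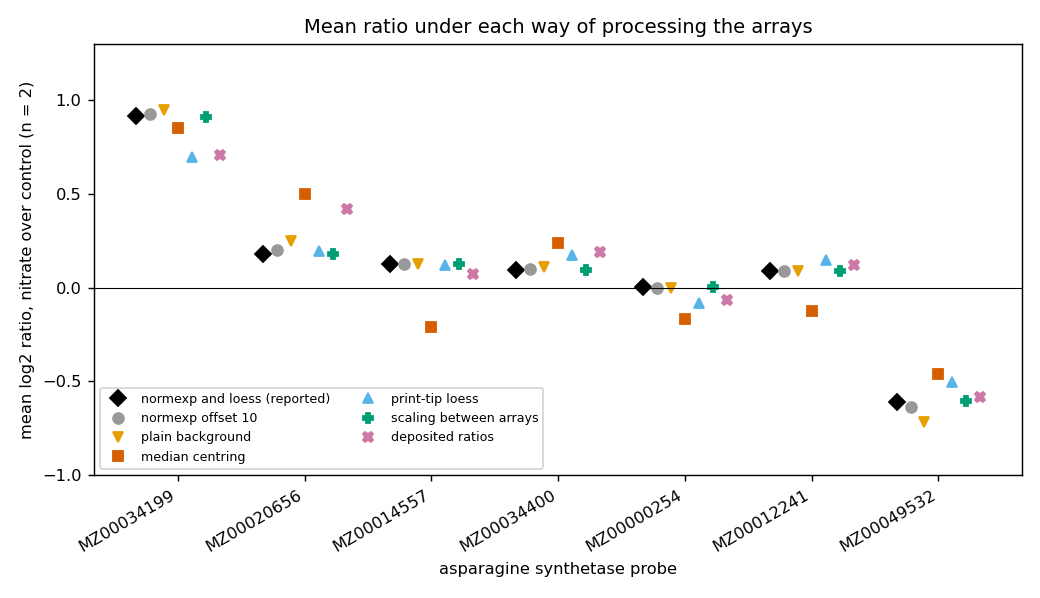
Mean log2 ratio of nitrate over control (n = 2 arrays) of the 7 tested asparagine synthetase probes under the reported processing (black diamonds) and under 6 of the alternatives, each with its own symbol. MZ00034199 stays between 0.70 and 0.95 and MZ00049532 between -0.72 and -0.46, whereas MZ00014557, MZ00000254 and MZ00012241 cross 0 with median centring.

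The enzymes around asparagine synthetase were read from 9 further lists of probe descriptions, whose calls over all probes can be set beside those of the family. Over all tested probes 7.59% were higher and 4.86% lower at an unadjusted limma p under 0.05. By the same threshold, of 11 tested nitrate and nitrite reductase probes 8 were higher and 0 lower, of 18 glutamine synthetase probes 6 and 2, of 12 glutamate synthase and dehydrogenase probes 7 and 0, and of 35 aspartate supply probes 9 and 2. The counts were 1 and 1 of 6 for asparaginase, 1 and 2 of 37 for other glutamine amidotransferases, and 2 and 1 of 21 for other aspartate users. They were 2 and 1 of 8 for names with asparaginyl and 0 and 0 of 7 for SnRK1 and related proteins. With lists this small no reading is drawn from these counts. For the counts by direction on both arrays given next, the shares of all tested probes were those above, 30.1% higher and 30.4% lower. Nitrate and nitrite reductases, which make the ammonium, held 1 called probe, the ferredoxin-nitrite reductase MZ00016104, with log2 ratios of 3.29 and 2.60 and a mean of 2.94 ± 0.49 (SD, n = 2; limma adjusted p = 0.00897). This call was lost, like all calls of version B, with plain background, a normexp offset of 10 or the deposited ratios. Of the 11 tested probes of that list 8 were higher on both arrays and 4 at least 2-fold, and the median was 0.76. Its lowest probe was the nitrate reductase MZ00050877 with -0.32 ± 0.41. The asparagine synthetase median of 0.09 is set beside this 0.76 as a description only, because the family median depended on the processing. With median centring the middle value of the 7 tested members was -0.12 (MZ00012241). The middle value of the nitrate and nitrite reductase list was then 0.89 (MZ00031157).

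Glutamine synthetase, which makes the amide donor, held 18 tested probes with 0 calls, 6 higher and 5 lower on both arrays, and a median of 0.03. They ranged from -0.75 ± 0.37 (MZ00014777) to 3.21 ± 1.66 (SD, n = 2; MZ00014550, described as the chloroplast form), the latter with a nitrate intensity of 56719 on replicate 2, close to the highest nitrate value of that array, 56810. Glutamate synthase and glutamate dehydrogenase, which make and turn over glutamate, held 12 tested probes with 0 calls, 9 higher and 0 lower on both arrays, and a median of 0.91. Their highest was an NADH-dependent glutamate synthase (MZ00024574) at 1.88 ± 0.79, and their lowest another NADH-dependent glutamate synthase (MZ00022870) at -0.01 ± 0.05, which turned to 0.24 with median centring. The highest asparagine synthetase probe, at 0.92, was thus at the median of this list.

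Aspartate is made by aspartate aminotransferase from oxaloacetate, which phosphoenolpyruvate carboxylase supplies. Of 35 tested probes for these enzymes and the kinase of the carboxylase, 0 were called, 22 were higher and 5 lower on both arrays, and the median was 0.26. An aspartate transaminase of the AAT3 type (MZ00038724) had the highest ratio at 1.26 ± 0.22 (SD, n = 2) and a phosphoenolpyruvate carboxylase kinase (MZ00029013) the lowest at -0.89 ± 0.67. Asparaginase, which releases ammonium from asparagine, was represented by 6 tested probes, of which 2 are described as glycosylasparaginase-like, an enzyme of glycoprotein breakdown. None was called, 4 were higher and 2 lower on both arrays, and the median was 0.18. Their range ran from -0.57 ± 0.06 (MZ00019244) to 0.86 ± 0.80 (MZ00054902), a probe whose control intensity was 12 on replicate 2 and thus below the blank limit.

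The substrates of asparagine synthetase are also used by other enzymes. Other enzymes that take nitrogen from glutamine had a median of 0.09 over 37 tested probes with 0 calls, 14 higher and 5 lower on both arrays. The list counts any subunit of such enzymes, also alpha subunits of anthranilate synthase. Both ends of the range of this list were CTP synthases, MZ00005969 at 0.73 ± 0.17 (SD, n = 2) and MZ00016108 at -1.16 ± 0.42. Other enzymes that use aspartate had a median of 0.07 over 21 tested probes with 0 calls, 8 higher and 6 lower on both arrays. They ran from an argininosuccinate synthase (MZ00033236), an enzyme of arginine synthesis, at -0.76 ± 0.16 to a bifunctional aspartokinase and homoserine dehydrogenase (MZ00034132), which opens the synthesis of threonine and methionine, at 0.91 ± 0.31.

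The list of names with asparaginyl held 8 tested probes with 0 calls, 2 higher and 2 lower on both arrays, and a median of 0.03. An asparaginyl-tRNA synthetase (MZ00024334), which loads asparagine onto its transfer RNA, had 1.00 ± 0.20 (SD, n = 2), and a chloroplast or mitochondrial form (MZ00015166) had -0.68 ± 0.08. The list also took 2 asparaginyl endopeptidases, which cut proteins and do not use free asparagine. The SnRK1 kinase acts when sugar or energy is short. Probes for this kinase and for proteins named after it numbered 7, with a median of 0.02. Of these probes 0 were called, 0 were higher and 3 lower on both arrays. They ranged from -0.43 ± 0.01 (MZ00025678) to 0.12 ± 0.23 (MZ00043820), both SnRK1-interacting proteins, and the latter turned to -0.19 with median centring.

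**Figure D4:**
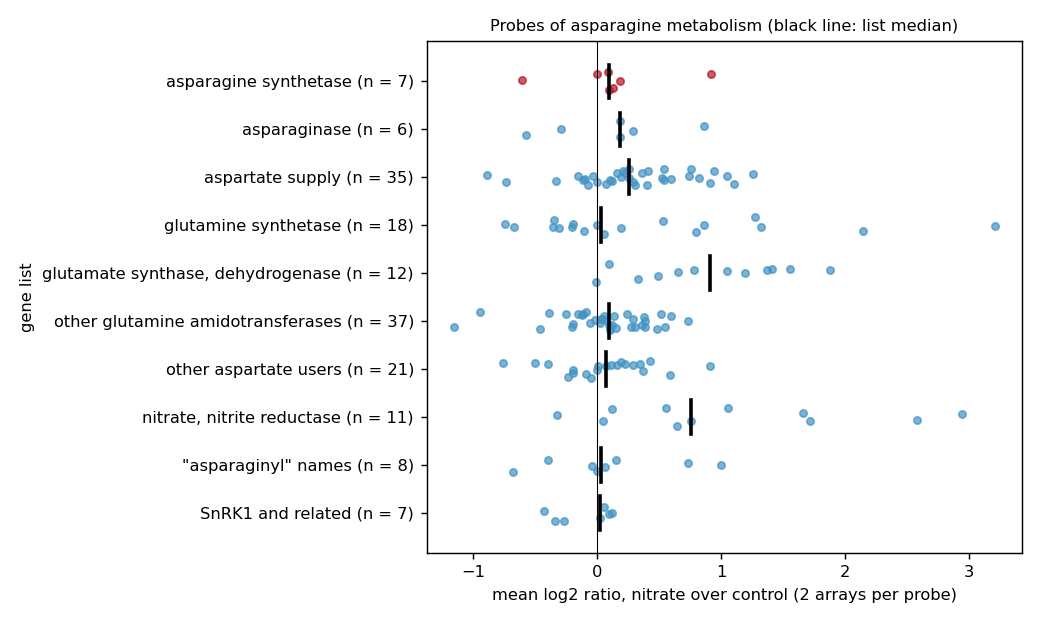
Mean log2 ratio of nitrate over control of each tested probe (points, 2 arrays each) in the asparagine synthetase family (red) and in 9 lists of related enzymes (blue), with the median of each list (black line). The asparagine synthetase median is 0.09, against 0.91 for glutamate synthase and dehydrogenase and 0.76 for nitrate and nitrite reductase. The medians of the remaining lists lie between 0.02 and 0.26, on both sides of that of the family.

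Likeness to the members was measured as the Euclidean distance between the log2 ratios on the 2 arrays of a version, over the probes of the other lists on the same version. With only 2 values per probe this is a description of size and direction. Nearest to MZ00034199 was the aspartokinase and homoserine dehydrogenase probe MZ00034132 (0.69 and 1.13, distance 0.17), followed by a glutamine synthetase, MZ00013243 (0.41 and 1.19, distance 0.18). Nearest to MZ00049532 was the asparaginyl-tRNA synthetase MZ00015166 (-0.62 and -0.73, distance 0.15), followed by an aspartate kinase, MZ00035505 (-0.25 and -0.75, distance 0.22). For the other 5 members the nearest probes lay at distances of 0.06 to 0.09.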

How the data were processed

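Per the file headers, each array file gives a Cy5 and a Cy3 intensity per spot and a ratio. The deposited intensity values are whole numbers on a linear scale, some below 0, so the authors had already subtracted a background. The deposited ratio is nitrate over control with a median of 0.996 to 1.01 per array, so the authors had normalized it within arrays. Both methods and the scanner are not given in the sources used here. In the series value table each entry equals this ratio within 0.0001 on 100% of spots.

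Log2 ratios came from normexp (offset 50) and global loess in limma 3.58.1 (R 4.3.3), with control spots and spots carrying flag B (4 to 10 per array, read as bad) at weight 0. Tests covered probes with a channel over the 95th percentile of blank and buffer spots on each array of their version (28374 probes for A, 24748 for B). lmFit and eBayes tested each version apart, with 1 residual degree of freedom, Benjamini-Hochberg adjustment and a threshold of 0.05. The fit was tested on simulated data with independent noise drawn from the fitted prior. That simulation does not cover dye bias or normalization. Nitrate RNA was in Cy3 on each array, so dye bias of single genes cannot be told apart from nitrate. The design text names 2 biological replicates. Whether they were separate plants is not stated, so p-values may measure a partly technical spread. The number of arrays limits the precision. Ratios on the 2 arrays of a version correlated at 0.289 (A) and 0.269 (B) across probes, which are not independent replicates.

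Every member is named, and of each other list the probe with the highest and the lowest mean. Members and lists were chosen with earlier results of these data known. Alternatives changed the background correction, normalization, filter, prior or ratio source, or left out a replicate.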

Additional observations from a re-analysis of the deposited data

How the results depend on the processing

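None of the 7 tested members was called under any of 9 alternatives, and 56 of their 63 mean log2 ratios kept the direction reported. These 56 include the ratios with no filter, with both channels above blank and with the trended robust prior. Those settings change only the filter or the prior and cannot move a ratio, so their direction was fixed in advance. The ratios that turned were MZ00014557 (-0.21), MZ00012241 (-0.12) and MZ00000254 (-0.17) with median centring, and MZ00000254 also with print-tip loess (-0.083), deposited ratios (-0.068), plain background (-0.0023) and a normexp offset of 10 (-0.00087). Without either replicate MZ00000254 ran from -0.19 to 0.19 and MZ00012241 from -0.11 to 0.28, and a single array gives no test. Members at least 2-fold on the array or arrays used, a count added after seeing the data, numbered 0 with both, 1 without replicate 1 (MZ00034199) and 0 without replicate 2. Probes called on version A went from 0 to 8 with print-tip loess and 4 with a trended robust prior. On version B the 13 calls became 0 with plain background, a normexp offset of 10 or deposited ratios, 3 with print-tip loess, 4 with scaling between arrays, 24 with both channels above blank and 71 with a trended robust prior. Calls in the related lists went from 1 to 0 with plain background, a normexp offset of 10 or deposited ratios, to 3 with both channels above blank and to 4 with a trended robust prior. The cause was not tested. No paired analysis was possible beyond the reported test, because each array already holds nitrate and control RNA as a ratio. Testing this ratio against 0 already pairs nitrate with control within each array. Members could not be paired across versions, which share no member probe. Signal over background limits MZ00038902, MZ00020656 and MZ00049532.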
